A study of Mus musculus with 6 samples.

Results

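The 9 genes described here encode the TIE and VEGF receptor tyrosine kinases with their main ligands and a coreceptor: Tek, Tie1, Angpt1, Angpt2, Kdr, Flt1, Flt4, Vegfa and Nrp1. All 9 were found among 22180 genes named by a probe set of their own, and each was read from its probe set with the highest mean over the 6 arrays. They were chosen by the array levels of Tek, which read high in 5 leukemias and near the floor in 1, so its own levels are a description with no test, and the question is whether its partners follow.

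The genes belong to a pair of receptor systems. Tek (also called Tie2) is the receptor of the angiopoietins; Angpt1 activates it, Angpt2 acts as an antagonist or a partial agonist depending on the setting, and Tie1 is a related receptor that pairs with Tek. VEGF-A, encoded by Vegfa, binds the receptors encoded by Kdr (VEGFR-2) and Flt1 (VEGFR-1), while Flt4 (VEGFR-3) mainly binds VEGF-C and VEGF-D, and neuropilin-1, encoded by Nrp1, is a coreceptor. Both systems are best known in blood and lymph vessels, and Tek is also expressed on hematopoietic stem cells and on some monocytes.

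The arrays carried total RNA of c-Kit+ cells sorted from the spleens of mice with end-stage leukemia. In 3 of the leukemias the mice carried Chd7f/f together with Mx1-Cre and Cbfb+/56M, and in the other 3, called the control here, Mx1-Cre and Cbfb+/56M without floxed Chd7. Cbfb+/56M stands for an inducible CBFB-MYH11 fusion, the lesion of inv(16) acute myeloid leukemia, Chd7 encodes a chromatin remodelling ATPase, and Mx1-Cre is a recombinase driven by an interferon-responsive promoter that is not restricted to blood cells. Every mouse of both genotypes received pIpC, which induces that promoter, and the mutagen ENU, so no group is free of the fusion, of Cre or of the mutagen. The labels used here do not say whether a sample is 1 mouse, and they give no age, and a p-value here covers only how far these samples differ among themselves, which may in part be technical.

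Levels are RMA values on the log2 scale, and differences are Chd7f/f minus control. Array medians lay between 4.72 and 4.82 in Chd7f/f and between 4.72 and 4.84 in control leukemias. Probe sets differ in brightness, so levels of different genes are not compared with each other. As a guide to the floor, the 1105 olfactory receptor genes, a family that is silent in most tissues outside the nose, had mean levels from 2.54 to 4.70 between their 5th and 95th percentiles. Kit, the gene behind the sort, was between 11.69 and 12.48 in Chd7f/f and between 11.68 and 12.12 in control leukemias. Chd7 was at 5.48, 6.50 and 5.91 in Chd7f/f and at 6.17, 7.54 and 5.32 in control leukemias, which overlap, and this level over the whole gene does not check the deletion. A principal component analysis placed control replicate 1 at 55.0 on its first axis (33.7% of the variance), with the other 5 arrays between -25.1 and -3.35. The second axis (30.2%) set Chd7f/f replicate 1 apart, at -45.2, with the other 5 between -13.1 and 33.2. Control replicate 1 was thus not the only array to stand apart. Control replicate 1 is also the array on which Tek was low. The differences of Tek and Vegfa and the likeness to Tek are therefore given with and without it. Differences and medians of the other gene lists are given with all arrays only, and some of them may rest on that array. Control replicate 2 alone had high Xist and low Y-linked genes.

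The promoter windows of Tek and Vegfa are shown because these were the members that shared a low array. Of the 9 genes, 7 had RefSeq windows (GRCm38.p6) from 250 bases before to 50 bases after a transcription start, 8 windows in all; Angpt1 and Angpt2 had no entry. Capitals mark every match, on either strand, to 4 short motifs: AGATAA for the GATA factors, GGAA for the core of ETS sites, TGTGGT for the RUNX factors, which are partners of Cbfb, and ACGTG for the core of hypoxia response sites. No matches of different motifs overlapped in these windows. The Tek window is chr4:94739039-94739338 on the plus strand and the Vegfa window, at the more upstream of 2 listed starts, is chr17:46032328-46032627 on the minus strand, both read 5′ to 3′ along the gene.
Tek: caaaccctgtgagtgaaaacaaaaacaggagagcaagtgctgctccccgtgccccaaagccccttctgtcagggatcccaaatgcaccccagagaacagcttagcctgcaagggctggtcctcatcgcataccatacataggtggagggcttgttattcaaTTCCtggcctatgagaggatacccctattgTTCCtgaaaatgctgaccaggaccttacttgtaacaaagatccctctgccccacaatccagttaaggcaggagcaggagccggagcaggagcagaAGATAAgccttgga
Vegfa: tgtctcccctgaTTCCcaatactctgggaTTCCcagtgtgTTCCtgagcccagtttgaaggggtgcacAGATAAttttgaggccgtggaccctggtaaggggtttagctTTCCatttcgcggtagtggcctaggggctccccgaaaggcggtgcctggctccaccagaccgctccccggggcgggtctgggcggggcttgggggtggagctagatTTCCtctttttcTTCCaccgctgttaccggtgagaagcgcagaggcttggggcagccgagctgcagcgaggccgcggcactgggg

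The Tek window held 1 GATA match, whose first base is base 37 after the start, and 2 ETS cores, 89 and 59 bases before it. The Vegfa window held 1 GATA match, 182 bases before the start, and 6 ETS cores. Among all 32851 windows of this length, 11.2% held AGATAA and 96.0% held GGAA. No window of a member held TGTGGT, which 16.8% of all windows did, and ACGTG, found in 19.6% of all windows, was present only in the second Vegfa window among the members. These matches describe letters in a short window and were chosen for searching with the levels known.

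Tek, the angiopoietin receptor gene, read high in all 3 Chd7f/f leukemias and in 2 of 3 control leukemias. Its levels were 8.69, 9.07 and 9.56 in Chd7f/f leukemias, against 4.80, 8.78 and 9.49 in control leukemias. The value in control replicate 1 lay 3.90 below the next lowest array, while the other 5 arrays spanned 0.87. The means were 9.11 ± 0.44 in Chd7f/f and 7.69 ± 2.53 in control leukemias (mean ± SD, n = 3 each), and the difference was 1.42 (SE 1.19). Without control replicate 1 the difference was -0.028, so the difference rests on that array. In RNA from a mixture of cells, fewer Tek-expressing cells and less Tek RNA per cell cannot be told apart.

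Tie1, the partner receptor of Tek, did not share its pattern. It read 4.32, 4.27 and 4.43 in Chd7f/f leukemias and 4.60, 4.49 and 4.32 in control leukemias, all within the range of olfactory receptor probe sets. The highest of the 6 values was that of control replicate 1, the array lowest for Tek. The difference was -0.13 (SE 0.12) and lay within the spread between leukemias (limma, adjusted p = 0.9998).

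Angpt1, the activating ligand of Tek, varied across arrays about as widely as its receptor but on other arrays. It was at 8.63, 4.72 and 7.26 in Chd7f/f leukemias, against 8.36, 6.71 and 9.39 in control leukemias. The low array here was Chd7f/f replicate 2, which lay 1.99 below the next lowest, and control replicate 1, low for Tek, was the third highest. The range of 4.67 over the 6 arrays exceeded that of most genes (percentile 99.7 of tested genes), as did the range of 4.76 for Tek (percentile 99.7). The means were 6.87 ± 1.98 in Chd7f/f and 8.15 ± 1.35 in control leukemias (mean ± SD, n = 3 each), and the difference of -1.28 (SE 1.12) did not pass the test (limma, adjusted p = 0.9998). Without Chd7f/f replicate 2 the difference was -0.21. A second probe set annotated to Angpt1 alone read 4.33, 3.85 and 4.05 in Chd7f/f and 4.09, 4.13 and 4.29 in control leukemias, so the probe sets disagree in level and in range, although Chd7f/f replicate 2 was lowest on both.

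Angpt2, the context-dependent ligand, stayed in the range of olfactory receptor probe sets on every array. It read 4.20, 3.88 and 3.90 in Chd7f/f leukemias and 3.80, 3.66 and 3.51 in control leukemias. The Chd7f/f values all lay above the control values, by 0.34 in the means (SD 0.18 in Chd7f/f and 0.15 in control leukemias, n = 3 each). Its mean fell below 4.13, the 30th percentile of named genes that served as the filter, so it was not tested. Of the 15526 genes that were tested, 2.45% had all Chd7f/f values above all control values.

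**Figure D1:**
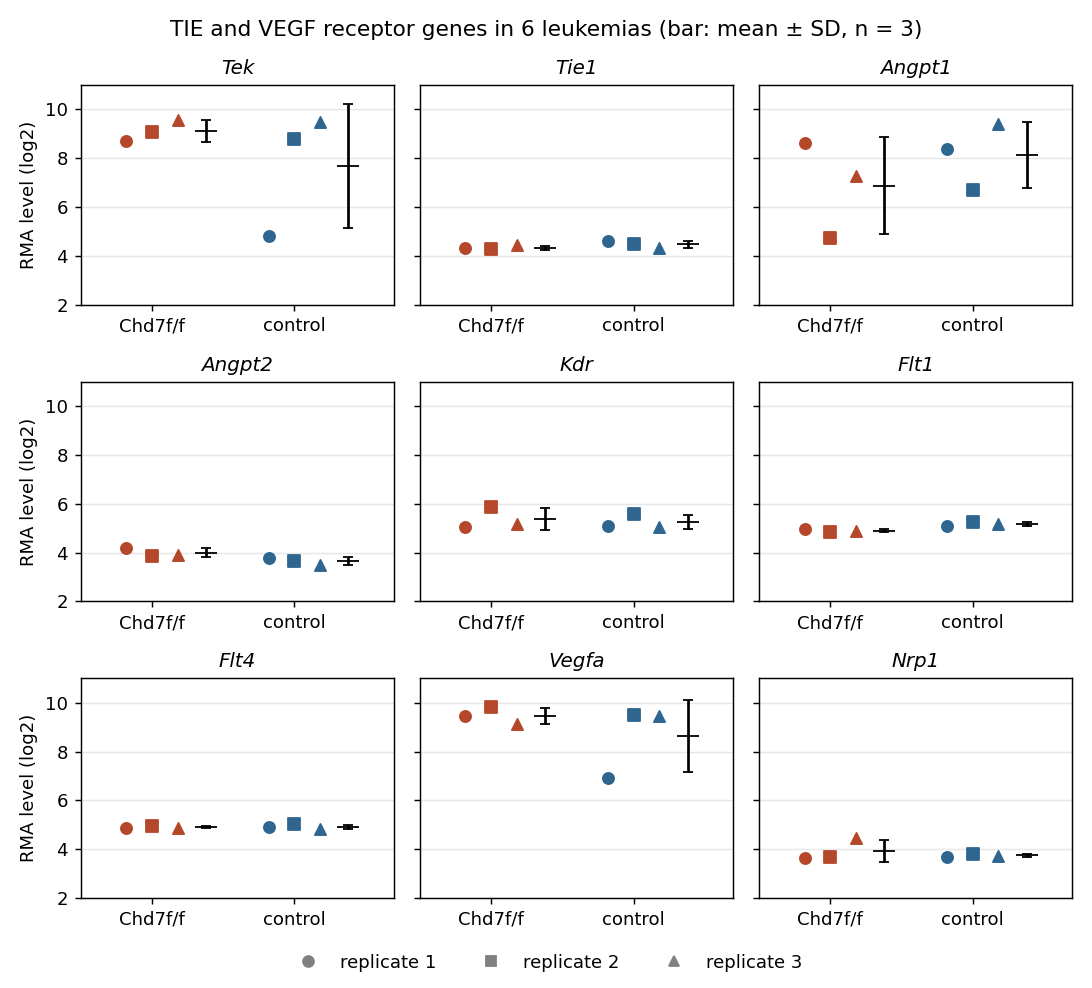
RMA level on the log2 scale (vertical axis) of the 9 genes in each leukemia, with Chd7f/f left and control right, symbols for replicate numbers and bars for mean ± SD (n = 3). Tek and Vegfa are low in control replicate 1, at 4.80 and 6.93, Angpt1 is low in Chd7f/f replicate 2, at 4.72, and the other 6 genes stay between 3.51 and 5.88.

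Vegfa, the ligand of Kdr and Flt1, was the member that was low on the same array as Tek. Its levels were 9.44, 9.81 and 9.12 in Chd7f/f leukemias, against 6.93, 9.50 and 9.45 in control leukemias. Control replicate 1 lay 2.20 below the next lowest array. The means were 9.46 ± 0.34 in Chd7f/f and 8.63 ± 1.47 in control leukemias (mean ± SD, n = 3 each), and the difference of 0.83 (SE 0.71) did not pass the test (limma, adjusted p = 0.9998). Without control replicate 1 it was -0.02, and with array weights 0.32. On the other 5 arrays Vegfa spanned 0.68, and there its lowest value, 9.12, fell on Chd7f/f replicate 3, the array with the highest Tek level.

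Of the 3 VEGF receptor genes, Kdr varied most across arrays (range 0.84, percentile 70.7 of tested genes) and Flt4 least. Their mean levels over the 6 arrays were 5.31 for Kdr, 5.03 for Flt1 and 4.91 for Flt4. All 3 means lay under 5.78, a guide to near-background signal drawn from the array medians. Kdr read 5.04, 5.88 and 5.17 in Chd7f/f leukemias and 5.10, 5.57 and 5.06 in control leukemias, with the replicates numbered 2 highest in each genotype. The difference was 0.12 (SE 0.27) and turned to -0.14 without Chd7f/f replicate 2 (limma, adjusted p = 0.9998 with all arrays). Control replicate 1 was in the middle of the Kdr values. Flt4 read between 4.87 and 4.95 in Chd7f/f and between 4.81 and 5.02 in control leukemias, a range of 0.20 over the 6 arrays that was among the narrowest of the tested genes (percentile 4.33). Its difference was -0.0072 (SE 0.11; limma, adjusted p = 0.9998), and the sign turned with the normalization, to 0.041 after a further quantile normalization and 0.042 after median centring.

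Flt1, with levels near background, was the tested member with the smallest p. Its levels were 4.96, 4.85 and 4.88 in Chd7f/f leukemias, against 5.09, 5.24 and 5.18 in control leukemias, so the genotypes did not overlap. The means were 4.90 ± 0.058 in Chd7f/f and 5.17 ± 0.078 in control leukemias (mean ± SD, n = 3 each), and the difference was -0.27 (SE 0.11). It had an unadjusted limma p of 0.0448 and an adjusted p of 0.9998, so it did not pass. Over all tested genes, 1.84% had an unadjusted p under 0.05 and 4.37% had all Chd7f/f values below all control values. The unadjusted limma p was 0.087 after a further quantile normalization, 0.102 after median centring and 0.0998 with the replicate number as a block. It was 0.0315 with no filter, 0.025 with a trended robust prior and 0.0178 with array weights. After adjustment Flt1 passed under none of these.

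Nrp1, the coreceptor gene, was in the range of olfactory receptor probe sets on all 6 arrays, at 3.64, 3.69 and 4.45 in Chd7f/f leukemias and at 3.70, 3.82 and 3.72 in control leukemias. The value of Chd7f/f replicate 3 stood 0.62 above the next. Nrp1 did not reach the filter and was not tested; its difference of 0.18 became -0.082 without Chd7f/f replicate 3.

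Of the 9 members 7 passed the filter, and leaving aside Tek, whose levels chose the group, 6 were tested. Of these 0 passed an adjusted p of 0.05 (limma), as for the whole table, where 0 of 15526 genes (0%) passed. An unadjusted p under 0.05 was found for 1 of the 6 genes, Flt1, and for 286 of all tested genes. Of the 6 genes 2 had positive and 4 negative differences, with a median of -0.068, beside a median of -0.027 over all tested genes. None of the 6 had both an unadjusted p under 0.05 and a fold of 1.5 or more, beside 54 genes (0.348%) higher and 67 (0.432%) lower in Chd7f/f leukemias over the whole table; this split was 71 higher and 58 lower after median centring. With 3 arrays in each genotype, 0.1 is the smallest two-sided p that an exact permutation test of a single gene allows.

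**Figure D2:**
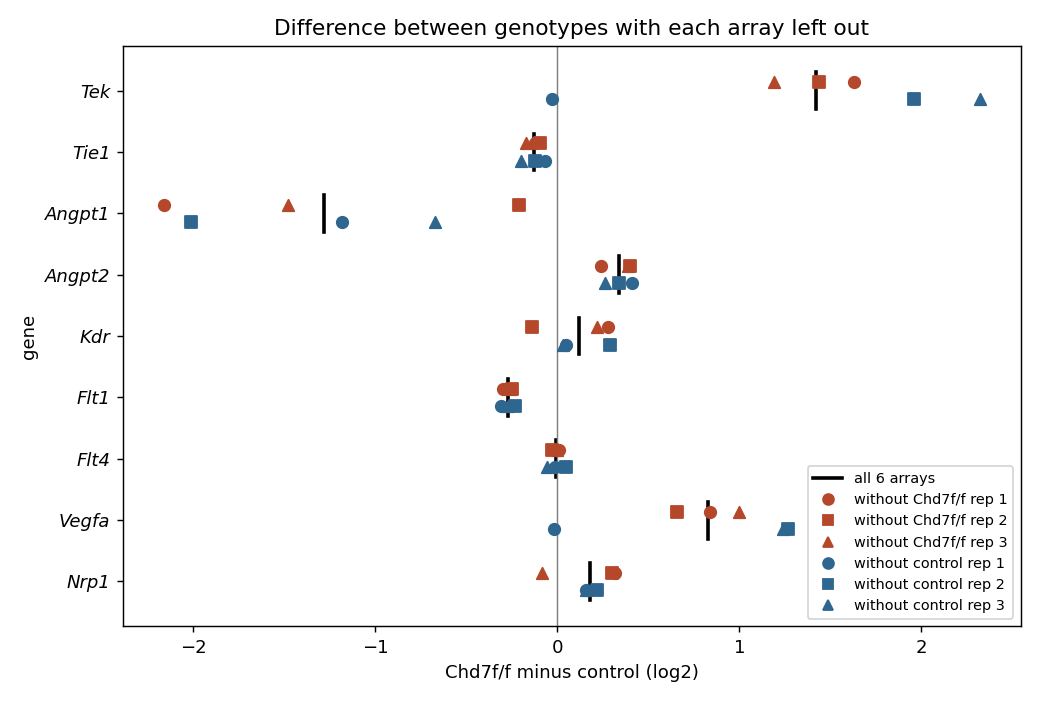
Chd7f/f minus control on the log2 scale (horizontal axis) for each gene, with all 6 arrays (black bar) and with each array left out in turn (symbols; red, a Chd7f/f array left out; blue, a control array left out). Tek and Vegfa move to -0.028 and -0.02 without control replicate 1, and Angpt1 to -0.21 without Chd7f/f replicate 2, while the differences of Tie1, Flt1 and Flt4 stay between -0.31 and 0.047.

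How closely each member followed Tek was measured by the root-mean-square difference between its levels and those of Tek, each set to a mean of 0 over the 6 arrays, and all 15525 other tested genes were ranked by it. Vegfa ranked 22, at 0.803. Kdr ranked 3644 (1.60), Flt4 6388 (1.65), Flt1 8510 (1.68), Tie1 11358 (1.73) and Angpt1 15406 (2.47), so Angpt1 was among the genes least like Tek by this measure. The measure depends on the size of change as well as the pattern, so genes that vary little get similar values. Pearson correlations with Tek over the 6 arrays were 0.94 for Vegfa, 0.24 for Kdr and -0.035 for Flt4. They were -0.19 for Flt1, -0.21 for Angpt1 and -0.75 for Tie1. Without control replicate 1 Vegfa ranked 12345, so the likeness between Vegfa and Tek rests on that array.

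Among all tested genes, control replicate 1 was the lowest array by at least 2 for 34 genes (0.219%), a distance chosen after the values were seen, and Tek and Vegfa were among them. By at least 1 it was the lowest for 189 genes (1.22%), fewer than the 267 (1.72%) for which Chd7f/f replicate 1 was. Control replicate 1 was the highest array by at least 2 for 68 genes. On the other arrays, between 1 and 21 genes were lowest by at least 2, with Chd7f/f replicate 2 at 21.

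The 10 named genes most like Tek were Sccpdh, Tspan8, Slc22a23, Cpne3, Plxnc1, Gphn, Gkap1, Plcb4, Bmpr2 and Amigo2, at root-mean-square differences from 0.629 to 0.765, and they hold ranks 2 to 11. Sccpdh, a gene similar to saccharopine dehydrogenase, was between 10.99 and 11.11 in Chd7f/f leukemias and at 7.82, 10.20 and 10.61 in control leukemias. Plxnc1, which encodes the receptor of semaphorin 7A, was at 8.96, 8.58 and 8.37 in Chd7f/f and at 5.69, 8.34 and 8.46 in control leukemias. Bmpr2, the type II receptor of bone morphogenetic proteins, was at 10.78, 11.05 and 10.42 in Chd7f/f and at 7.85, 10.68 and 10.33 in control leukemias. All 10 had their lowest level in control replicate 1, by 2.04 to 2.82. Without control replicate 1, 0 of the 10 were still among the 10 nearest genes, and with Pearson's correlation in place of the difference 1 was.

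**Figure D3:**
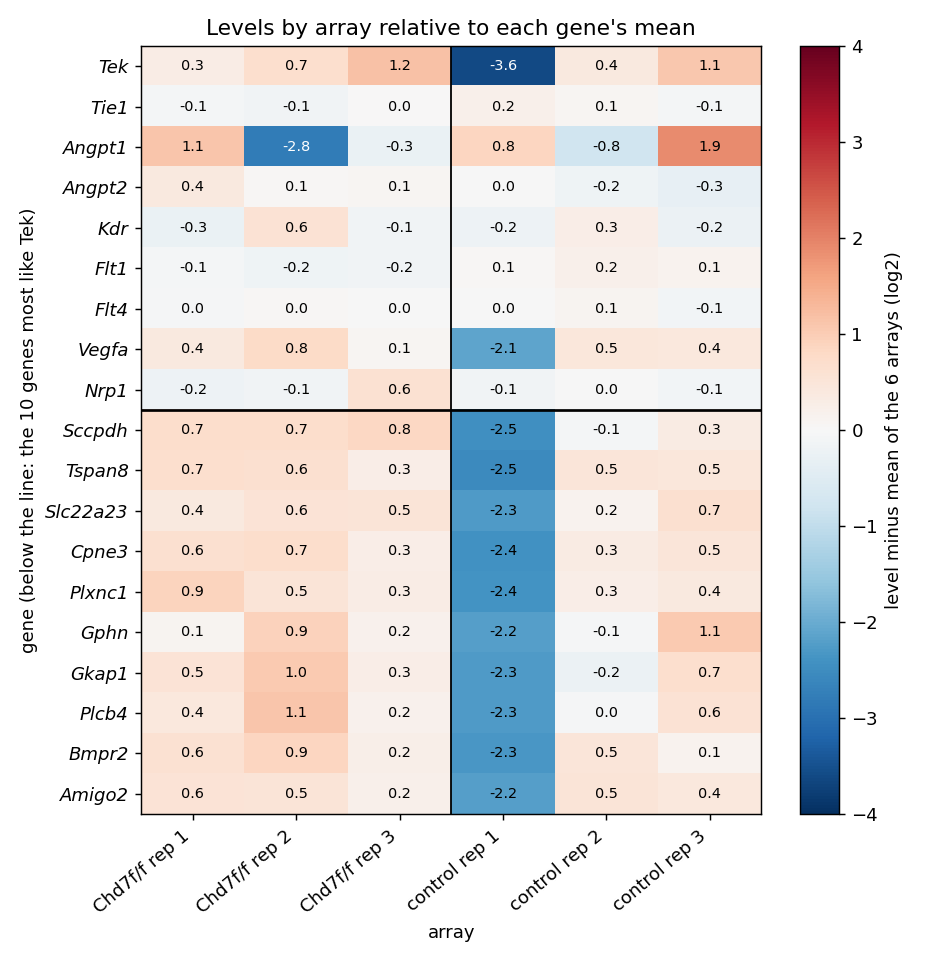
Level on each array minus the gene's mean over the 6 arrays (log2, colour and printed value), for the 9 members above the line and the 10 genes most like Tek below it. Tek, Vegfa and the 10 genes share a low value in control replicate 1, and the lowest value of Angpt1 falls on Chd7f/f replicate 2.

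Other ligands, coreceptors and regulators of these pathways were taken as a list of 16 genes. All 16 were measured and 9 were tested, with 0 passing an adjusted p of 0.05 in either direction (limma) and 0 with an unadjusted p under 0.05. The median difference was 0.083, beside -0.027 over all tested genes. Vegfb, a ligand of Flt1, was at 8.95, 8.96 and 8.98 in Chd7f/f and at 8.58, 9.0 and 8.91 in control leukemias, so it too was lowest in control replicate 1, but by far less than Vegfa. Adamts3, the protease that processes VEGF-C, was at 7.85, 8.37 and 8.10 in Chd7f/f and at 7.79, 7.93 and 7.98 in control leukemias (difference 0.21, SE 0.16). Egfl7, a secreted factor of vessels that is also made by blood progenitors, was at 5.52, 7.83 and 7.02 in Chd7f/f and at 7.42, 7.43 and 6.56 in control leukemias. For Egfl7 the low array was Chd7f/f replicate 1.

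Svep1, an extracellular matrix protein linked to TIE receptor signalling, stood out in Chd7f/f replicate 1, at 5.95, where the remaining arrays read at most 4.73. Plxna1, a semaphorin coreceptor that pairs with neuropilins, was at 5.38, 5.68 and 5.25 in Chd7f/f and at 5.57, 6.14 and 5.56 in control leukemias (difference -0.32, SE 0.21). Plxnd1 and the ligand genes Angpt4, Vegfc and Pgf differed by 0.083, 0.098, -0.13 and -0.046. Vegfd, Nrp2, Ptprb, Plxna2, Sema3a, Sema3e and Ccbe1 did not reach the filter.

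Of the genes that carry signals inside the cell from these receptors, 24 were tested and 0 passed (limma), with 0 at an unadjusted p under 0.05 and a median difference of 0.03. Pik3r1, the regulatory subunit of PI3 kinase, was at 11.15, 10.81 and 10.45 in Chd7f/f and at 9.59, 10.86 and 10.92 in control leukemias. The adaptor gene Grb2 was between 10.37 and 10.54 in Chd7f/f and between 10.34 and 10.49 in control leukemias. Stat5b and Akt1 differed by 0.27 (SE 0.15) and -0.071 (SE 0.12). Of the 25 measured genes of this list 7 were lowest in control replicate 1 and 3 highest. The share of all tested genes lowest or highest there by any margin was not counted. This count and the like counts for the lists below therefore have no background beside them.

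Vegfa is a known target of the hypoxia-inducible factors, so 20 other target genes were set beside it, of which 19 were measured and 18 tested. None passed (limma, 0 also at an unadjusted p under 0.05), and the median difference was 0.13. Slc2a1, the glucose transporter GLUT1, was at 10.20, 10.72 and 9.88 in Chd7f/f and at 8.68, 10.59 and 10.10 in control leukemias. Bhlhe40, a transcriptional repressor, was at 11.58, 11.05 and 11.29 in Chd7f/f and at 9.97, 11.24 and 11.34 in control leukemias. The oxidoreductase gene Ero1a was likewise lowest in control replicate 1, at 11.40, while Pgk1, a glycolytic kinase, was at 10.57 there and lowest in Chd7f/f replicate 1, at 9.64. The list as a whole did not go one way in control replicate 1: 7 of 19 genes had their lowest and 6 their highest level there, among the latter P4ha1, a collagen prolyl hydroxylase named after its values were seen, at 8.65 on that array and at most 5.37 elsewhere.

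The sort was for c-Kit, and Tek and the VEGF receptors are also made by vessel cells, so endothelial markers were set beside the members. Of 22 markers, all measured, 18 were tested and 0 passed (limma, 0 at an unadjusted p under 0.05, median difference -0.011). The mean level of the list was between 5.03 and 5.27 in Chd7f/f and between 4.97 and 5.31 in control leukemias, and it was 5.19 in control replicate 1. Only 6 of the 22 had a mean above 5.78, the guide to near-background signal. In control replicate 1, 2 of the 22 were lowest and 6 highest, so a steady list mean does not show that each gene was steady. Cdh5, the defining junction gene of vessels, named after its values were seen, was between 4.87 and 4.97 in Chd7f/f and between 4.76 and 4.91 in control leukemias, and Emcn, likewise, was at most 3.73 on every array. Plvap was at 6.41, 5.91 and 7.52 in Chd7f/f and at 5.52, 6.53 and 5.36 in control leukemias, and Icam2 was between 6.21 and 8.10 in Chd7f/f and between 6.74 and 7.62 in control leukemias.

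Of the endothelial list, Erg, an ETS transcription factor of vessels and of blood stem cells, had the low array of Tek. It was at 8.93, 9.65 and 8.80 in Chd7f/f leukemias, against 6.31, 9.05 and 8.64 in control leukemias. Eng, a coreceptor for TGF-beta family ligands that early erythroid cells also express, went the other way, at 5.16, 5.02 and 5.58 in Chd7f/f and at 9.07, 6.39 and 4.79 in control leukemias; it was named after its values were seen. The part of these genes in the level of Tek was not tested.

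Hematopoietic stem cell markers were next, since Tek is expressed there. Of 16 measured genes 15 were tested and 0 passed (limma), and 1 had an unadjusted p under 0.05: Ctnnal1, an alpha-catenin relative, at 7.63, 8.51 and 8.05 in Chd7f/f and at 8.97, 8.91 and 8.76 in control leukemias (difference -0.82, SE 0.23, adjusted p = 0.9998 by limma). The median difference was -0.096, and the mean level of the list was 6.87, 6.27 and 6.67 in Chd7f/f and 6.30, 6.70 and 6.90 in control leukemias. This list mean was thus lowest in Chd7f/f replicate 2, where Angpt1 was low, and in control replicate 1, where Tek was low. Its part in either was not tested. Of the 16 measured genes only 3 were lowest and 2 highest in control replicate 1, so most of the list was not lowest there. Slamf1, named after its values were seen, was at 7.78, 5.27 and 9.22 in Chd7f/f and at 4.51, 5.83 and 10.22 in control leukemias. It was thus also low in both replicates numbered 2, where Tek was high. Meis1, a homeobox cofactor, was at 9.77, 8.98 and 9.07 in Chd7f/f and at 6.98, 9.13 and 10.24 in control leukemias, again lowest in control replicate 1. Gata2 lay between 11.59 and 12.04 in Chd7f/f and between 11.58 and 11.90 in control leukemias. Mllt3 differed by -0.15 (SE 0.31) and Pdzk1ip1 by -0.29 (SE 0.21).

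Erythroid markers were highest on the array where Tek and Vegfa were lowest. The mean level of the 9 measured genes was 8.89, 9.70 and 10.09 in Chd7f/f leukemias and 10.87, 9.38 and 9.80 in control leukemias, and 6 of the 9 were highest in control replicate 1. Rhag, a Rh-associated membrane glycoprotein, was at 10.32, 10.58 and 10.62 in Chd7f/f and at 12.02, 10.61 and 10.45 in control leukemias. Slc4a1, the anion exchanger of red cells, named after its values were seen, was at 5.92, 7.28 and 9.14 in Chd7f/f and at 11.47, 6.73 and 6.35 in control leukemias. The other 3 were Klf1, Epor and Car1, and Car1 was lowest there, at 11.09, where the next lowest array stood 0.91 higher, while Car2 and Ermap differed by -0.15 and -0.28. None of the 9 passed (limma, 0 at an unadjusted p under 0.05, median difference -0.28), and the part of erythroid cells in the low Tek and Vegfa levels was not tested.

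Of 7 tested megakaryocyte markers 0 passed (limma, 0 at an unadjusted p under 0.05, median difference -0.22), and the list mean in control replicate 1, at 6.01, lay among the others, between 5.73 and 6.37. Within it Itgb3 was lowest in control replicate 1, at 6.22, and Gp9 highest, at 10.81; Itga2b was at 9.05 there and between 9.32 and 10.34 elsewhere, and Treml1 differed by 0.42 (SE 0.44). Of 13 monocyte and macrophage markers 0 passed (limma), 1 had an unadjusted p under 0.05, and the median difference was 0.29. That gene was Mpeg1, the macrophage pore-forming protein, 1.12 higher in Chd7f/f leukemias (SE 0.38, adjusted p = 0.9998 by limma). C1qb, Cd68, Ctss and Vcam1 differed by 0.59, 0.26, 1.08 and 0.54, and none of the 13 had its lowest or highest level in control replicate 1. The list mean was 6.78, 6.01 and 7.09 in Chd7f/f and 6.22, 6.62 and 5.72 in control leukemias. The genotypes thus overlapped, and the lowest array was control replicate 3. Of 8 tested stromal and pericyte markers 0 passed (limma, 0 at an unadjusted p under 0.05, median difference -0.14). Cxcl12, Acta2, Pdgfrb and Cspg4 had differences of 1.39, -0.078, -0.48 and -0.15. The list mean was highest in control replicate 1, at 5.13, against 4.61 to 5.03 elsewhere. Of the 13 measured genes 6 were highest there, but only Pdgfrb by a wide margin. Pdgfrb was at 8.99 there, 1.33 above the next array, and the rest of the 6 led by at most 0.21.

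**Figure D4:**
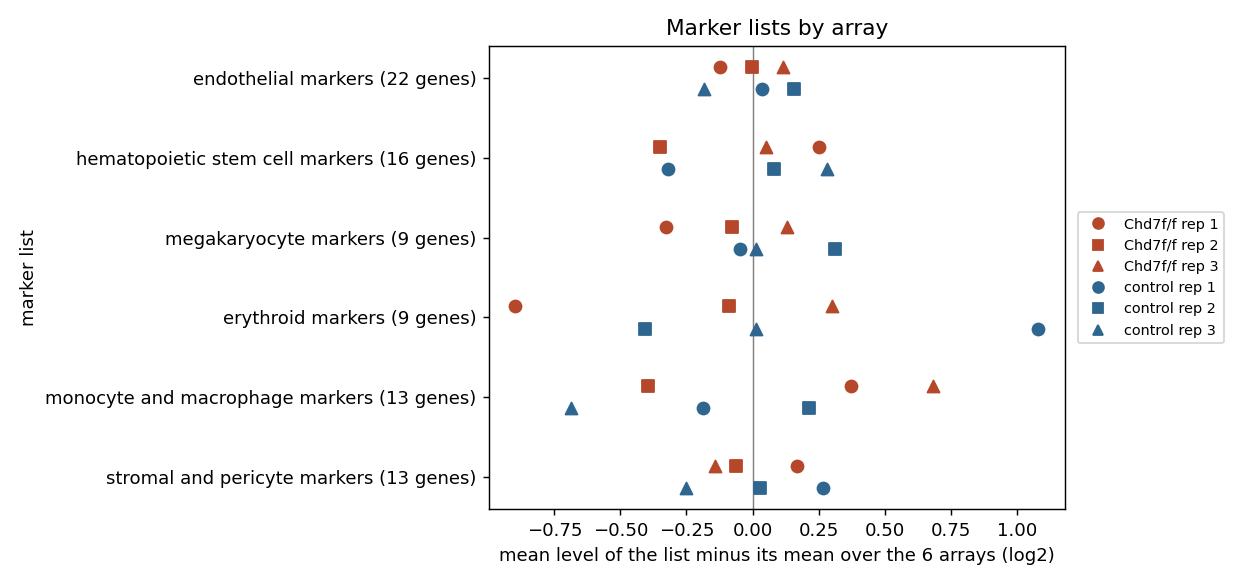
Mean level of each marker list on each array, minus the list's mean over the 6 arrays (log2, horizontal axis), with Chd7f/f arrays in red above and control arrays in blue below. The erythroid list is highest in control replicate 1, at a mean level of 10.87, and lowest in Chd7f/f replicate 1, at 8.89. The mean of the endothelial list, most of whose genes are near background, stays between 4.97 and 5.31 on all arrays.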

How the data were processed

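The table the authors deposited holds log2 levels of 41345 probe sets on 6 arrays, from 1.78 to 13.46, with 0 values missing. Per the submitters' processing notes, Affymetrix Expression Console and RMA made them; no version or setting is given in the sources used here, and RMA removes differences in total signal. Per the series' design text the array is a mouse design of the Gene 2.0 ST type, whereas the labelling protocol names its human counterpart.

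Genes were assigned through the platform annotation, where 23521 probe sets had 1 symbol, 1814 several and 16010 none listed, and symbols were brought up to date by Entrez ID with the RefSeq table of GRCm38.p6, in which 21994 of the 22180 genes were found. The brightest probe set on average stood for its gene, and genes whose mean reached the 30th percentile (4.13) entered the test. Genotypes were compared over 15526 genes with lmFit and eBayes of limma 3.58.1 under R 4.3.3, with no covariate and Benjamini-Hochberg adjustment; the steps were tested on simulated data. Depth has no meaning for arrays, and their number limits the precision.

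The members and all gene lists were chosen with earlier results of these data known. Named are the 9 members, Chd7 and Kit, the 10 genes most like Tek (predicted and unnamed genes left out), the tested further ligands and receptors, and from each other list the 4 with the highest mean level and any with an unadjusted p under 0.05. Listed gene symbols that no probe set of their own measures were left out. Alternatives were a further quantile normalization, median centring, other filters, averaging a gene's probe sets, a trended robust prior, array weights, a replicate block and leaving out each array. Replicates with the same number showed correlations of their deviations from the group means of 0.027, -0.025 and 0.034. These values gave no sign of pairing over all tested genes, but they cannot exclude it, and the labels do not state it. No batch or date is given in the labels used here. Plots were drawn with matplotlib 3.10.9.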

Additional observations from a re-analysis of the deposited data

How the results depend on the processing

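The count of genes past an adjusted p of 0.05 was 0 under every alternative tried. The count with both an unadjusted p under 0.05 and a fold of 1.5 or more was 121, against 186 with array weights, 171 with the replicate number as a block, and 128 to 283 with 1 array left out (183 without Chd7f/f replicate 3, 202 without control replicate 3, 283 without control replicate 2); the causes were not tested. No tested member passed the adjusted threshold under any alternative in which it was tested, the replicate block included (Angpt1 -1.28, Vegfa 0.83, Flt1 -0.27 there). With 1 array left out, differences ran from -0.028 to 2.32 for Tek, -0.02 to 1.27 for Vegfa, -2.16 to -0.21 for Angpt1, -0.14 to 0.29 for Kdr, -0.055 to 0.047 for Flt4, -0.31 to -0.23 for Flt1 and -0.2 to -0.066 for Tie1. The sign of Flt4 also turned with a further quantile normalization (0.041), median centring (0.042) and array weights (0.018). With the mean of its probe sets Angpt1 was at -0.69, and array weights brought Tek to 0.92 and Vegfa to 0.32. Of the 10 genes most like Tek, between 0 and 10 remained with 1 array left out, 0 without control replicate 1 and 6 without control replicate 3, and 1 with Pearson's correlation. Detection calls are not analysed here, so levels near the floor have no firm order.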

Other observations

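The genes most like Vegfa and Angpt1 were looked up after the levels had been seen, by the measure used for Tek. The 5 named genes nearest to Vegfa among 15525 were Parp12, Tjp1, Ackr1, Amigo2 and Dusp3, at root-mean-square differences from 0.114 to 0.169, closer than the 0.629 of the nearest named gene to Tek. Parp12, an interferon-induced mono-ADP-ribosyltransferase, was at 8.17, 8.42 and 7.99 in Chd7f/f leukemias and at 5.68, 8.44 and 8.10 in control leukemias. Tjp1, the tight junction scaffold ZO-1, was at 9.96, 10.36 and 9.76 in Chd7f/f and at 7.50, 9.74 and 9.98 in control leukemias. Ackr1, an atypical chemokine receptor, was at 8.86, 9.15 and 8.56 in Chd7f/f and at 6.45, 9.10 and 9.20 in control leukemias. Amigo2, an adhesion molecule, was also among the 10 genes most like Tek.

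The 5 nearest to Angpt1 were Akap11, Ccl2, Nfia, Mettl27 and Nedd4l, at 0.61 to 0.691. Ccl2, a monocyte-attracting chemokine, was at 8.77, 5.34 and 7.49 in Chd7f/f and at 7.35, 5.76 and 8.57 in control leukemias. Nfia, a nuclear factor I transcription factor, was at 8.15, 5.23 and 7.16 in Chd7f/f and at 7.57, 7.11 and 8.06 in control leukemias. Nedd4l, a ubiquitin ligase, was at 8.60, 5.79 and 8.42 in Chd7f/f and at 10.19, 8.62 and 9.84 in control leukemias. All 3 were lowest in Chd7f/f replicate 2, as Angpt1 was. These values describe 6 arrays.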
